A study of Syntrichia ruralis with 8 samples.

Results

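The clones described here carry the moss genes for making, folding and breaking down proteins. A clone belongs to the group if its annotation names a ribosomal protein, a translation factor, a heat shock protein or other chaperone, a protease or peptidase, or ubiquitin, and the 4 ribosomal protein control clones of the array are included. This text search found 37 of the 768 clones on the array, among 209 clones with an annotation. By the words matched, 25 clones serve protein synthesis (16 of the large ribosomal subunit, 6 of the small subunit and 3 translation factors), 4 serve folding and 8 serve breakdown. The clone USD-261, annotated as a regulator of the Clp protease, matched both folding and breakdown words and is counted under folding. USD-191, annotated cystatin, is an inhibitor of cysteine proteases and is counted under breakdown because the search reads the word protease.

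The samples are leafy gametophytes of the desiccation-tolerant moss Tortula ruralis (Syntrichia ruralis), stored dry and hydrated for 48 h before use. Slow-dried plants were held for 24 h at 20 °C and 66% relative humidity, and rapid-dried rehydrated plants were dried over silica gel and rewetted for 2 h; the latter are called rehydrated below. Each treatment was set against hydrated plants on 2-colour arrays of cDNA fragments, once with total RNA and once with polysomal RNA, with 2 arrays in each of the 4 comparisons and the dyes exchanged between them. The RNA came from pools of many plants, the arrayed cDNAs came from a subtracted library and are no random sample of genes, and total and polysomal RNA were prepared from separate plants. Fraction therefore cannot be told apart from plant sample or from slide, since the total RNA arrays were slides 2, 3, 5 and 6 and the polysomal arrays slides 73, 85, 93 and 105. Whether the slow-dried and the rehydrated arrays shared hydrated RNA is not given in the sources used here.

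Ribosomes are built from a large and a small subunit, each a scaffold of ribosomal RNA clothed with many different ribosomal proteins. Elongation factors deliver aminoacyl-tRNA to the ribosome or move the ribosome along a messenger RNA. A messenger that is being read usually holds several ribosomes at once, a polysome. Chaperones help new or damaged chains to fold, and proteases, the proteasome among them, cut proteins that are damaged or no longer needed. In Tortula ruralis protein synthesis stops as the plant dries and starts again soon after rewetting, using messengers kept through the dry state, so the amount of a messenger and its share on polysomes can move apart.

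The array with the conflicting label is replicate 2 of rehydrated polysomal RNA (slide 85), for which the title gives slow drying and the other labels give rapid drying with rehydration. It was used as the latter. On replicate 1 of rehydrated total RNA only 36.6% of all clones, and 26 of the 37 members, were well above background (signal above the local background by 2 of its SDs) in the hydrated channel. On the other 7 arrays that share ran from 65.9 to 94.5% of clones. The green-tissue markers present on the array (a chlorophyll a/b-binding protein, a photosystem I subunit and chloroplast carbonic anhydrase) stood well above background on all 8 arrays in the hydrated channel. In bulk tissue such as this, fewer cells of a type and less RNA per cell cannot be told apart.

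Unless a difference is named, values below are log2 ratios of treated to hydrated tissue. On the main scale 0 is the typical clone of the array, so a negative value means that the ratio of treated to hydrated signal was lower for that messenger than for the typical clone. It is a change and not a level. On the control scale each array was shifted so that the 4 ribosomal protein control clones averaged 0. The labels state that these messengers do not respond to drying. Against these controls the median clone lay higher by 1.53 in slow-dried total RNA, 1.18 in rehydrated total RNA, 1.44 in polysomal RNA of slow-dried plants and 1.04 in rehydrated polysomal RNA. Directions against hydrated tissue therefore often depend on the scale: for the 22 clones named by rule, 38 of the 88 fitted values changed sign on the control scale with a call on at least 1 of the scales. The difference between 2 clones on the same array is the same on both.

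Relative to the typical clone, members were mostly lower after both treatments and in both fractions, while relative to the control clones nearly all calls were upward. In slow-dried total RNA 30 of the 37 members were called lower and 2 higher on the typical-clone scale, where 30.6% of all clones were called lower and 32.4% higher. The control scale gave 0 lower and 12 higher for the same members, against 3.26% and 77.7% of all clones, and 1 member was lower there at an unadjusted p under 0.05. Calls are at an adjusted p under 0.05 from limma with Benjamini-Hochberg adjustment over the 768 clones.

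In rehydrated total RNA 23 members were called lower and 4 higher, beside 26.8 and 29.4% of all clones, and the control scale gave 2 lower and 14 higher (1.56 and 72.5%). These control-scale calls include USD-261 in both total RNA comparisons and USD-194 in the rehydrated one, where neither channel was well above background on either array. In slow-dried polysomal RNA 23 were called lower and 1 higher, beside 24.5 and 21% of all clones, and the control scale gave 0 lower and 17 higher (2.6 and 81.6%), with 1 lower at an unadjusted p under 0.05. In rehydrated polysomal RNA 19 were called lower and 2 higher, beside 17.6 and 19% of all clones, and the control scale gave 0 lower, also without adjustment, and 16 higher (1.3 and 75.5%). Members' median log2 ratios in these comparisons were -1.45, -0.98, -0.83 and -0.67 in the order just given, while the medians over all clones were 0.05, -0.01, 0.03 and -0.02.

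Dye-swap normalization removes the dye trend of each pair of arrays and does not centre each array. It gave 5 members lower and 9 higher in slow-dried total RNA (6.38 and 70.2% of all clones), 0 and 11 in rehydrated total RNA (0.391 and 78.6%), 4 and 18 in polysomal RNA of slow-dried plants (4.95 and 72.8%), and 17 and 2 in rehydrated polysomal RNA (16.3 and 20.6%). With the authors' ratios 0 members were called lower in these comparisons and 11, 9, 14 and 12 higher, beside 62.1, 69.8, 53.6 and 44.5% of all clones called higher and 2.47, 0.13, 2.6 and 0.781% called lower. The control clones are themselves members: without them 26, 19, 19 and 15 of the other 33 were called lower on the typical-clone scale. On the control scale 11, 14, 17 and 16 of these 33 were called higher and 0, 1, 0 and 0 lower. Leaving out either polysomal array of the rehydrated pair, the array with the conflicting title or the other one, took the 19 lower calls to 0, and leaving out 1 slow-dried polysomal array took the 23 to 13 (replicate 1) or 12 (replicate 2). The 4 higher calls in rehydrated total RNA became 1 without replicate 1, the array with the dim hydrated channel, and 2 without replicate 2. The 2 higher calls in slow-dried total RNA became 1 without replicate 2 of that pair, and the 1 higher call in slow-dried polysomal RNA became 0 without its replicate 2.

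**Figure D1:**
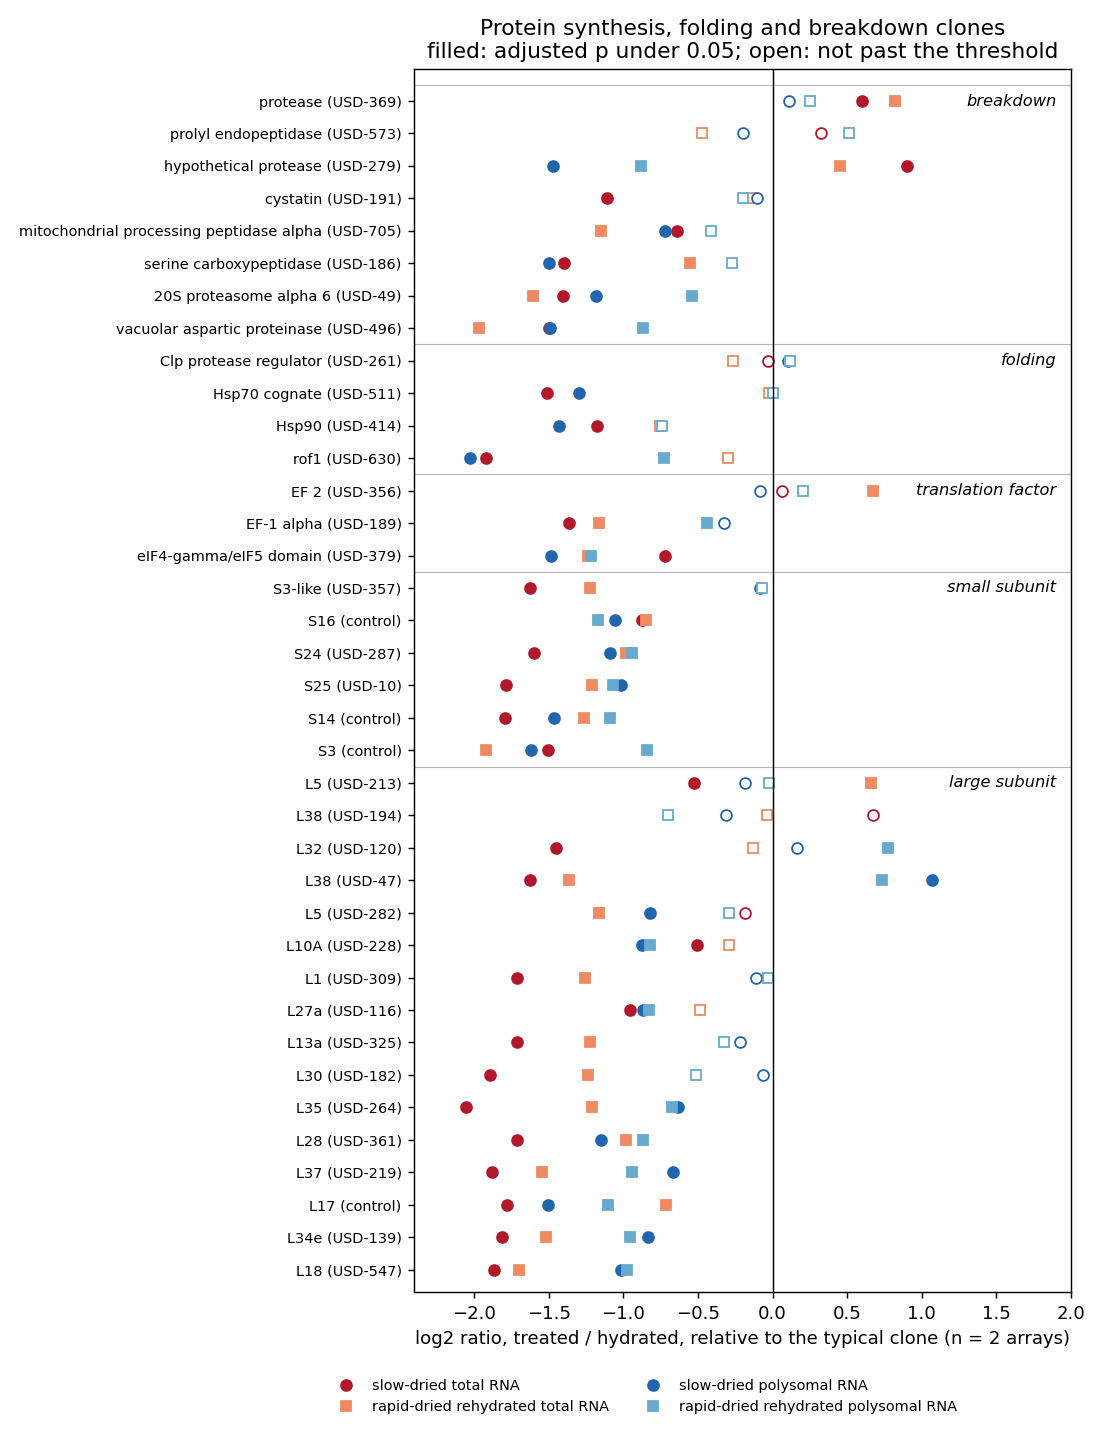
Fitted log2 ratio of treated to hydrated tissue (0 is the typical clone) for the 37 members in the 4 comparisons (2 arrays each), grouped by role; filled symbols passed an adjusted p under 0.05 and open ones did not. Most points lie left of 0, with medians from -1.45 to -0.67. On the control scale, where the 4 control clones average 0, the members' medians lie from 0.04 to 0.58 and those over all clones from 1.04 to 1.53.

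The control clones come first, since they set the second scale. L17, a large-subunit protein, had log2 ratios of -1.80 and -1.76 in slow-dried total RNA, -0.84 and -0.58 in rehydrated total RNA, -1.45 and -1.56 in polysomal RNA of slow-dried plants, and -1.03 and -1.17 in rehydrated polysomal RNA. S14, of the small subunit, had -1.50 and -2.08, -1.44 and -1.10, -1.53 and -1.39, and -1.06 and -1.12 on the same arrays. S16 had -0.36 and -1.39, -1.27 and -0.42, -0.92 and -1.19, and -1.26 and -1.08. All these values lie below the typical clone, and the total RNA arrays of S16 differ from each other by up to 1.03.

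S3, the remaining control, had -1.32 and -1.70 in slow-dried total RNA, -2.06 and -1.77 in rehydrated total RNA, -1.45 and -1.79 in polysomal RNA of slow-dried plants, and -0.69 and -0.99 in rehydrated polysomal RNA. The 4 clones did not keep level with each other: in rehydrated total RNA S3 lay at -0.73 and L17 at 0.47 on the control scale, and S3 was called lower there. By that scale S16 was called higher in slow-dried total RNA (0.61). The 4 clones were all called lower than the typical clone in all 4 comparisons, with fitted values from -0.71 to -1.92.

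Among the other large-subunit clones called in all 4 comparisons, L18, L34e and L37 lay lowest on average. L18 (USD-547) had -1.62 and -2.12 in slow-dried total RNA, -1.63 and -1.77 in rehydrated total RNA, -0.97 and -1.06 in polysomal RNA of slow-dried plants, and -0.98 and -0.97 in rehydrated polysomal RNA. L34e (USD-139) had -1.79 and -1.83, -1.76 and -1.28, -0.87 and -0.80, and -0.95 and -0.96 on the same arrays. L37 (USD-219) had -1.62 and -2.14, -1.66 and -1.43, -0.70 and -0.64, and -0.94 and -0.95. In each of these 3 the 4 total RNA values lie below the 4 polysomal values with no overlap.

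Those 3 clones kept close to the control clones in total RNA. Against the controls L18 lay at -0.38 and -0.51 in the slow-dried and rehydrated total RNA comparisons, L34e at -0.33 and -0.33, and L37 at -0.40 and -0.36, none of them called. In polysomal RNA they lay above the control clones, at 0.39 and 0.08 for L18, 0.58 and 0.10 for L34e, and 0.74 and 0.11 for L37, of which the 0.74 of L37 in slow-dried plants was called.

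How a messenger stood on polysomes compared with how it stood in total RNA was read from the difference between the polysomal and the total RNA response. In slow-dried plants 12 of the 37 members were higher in polysomal than in total RNA and 1 was lower, while 13.8% of all clones were called higher and 15.5% lower. Of the 12, 9 are large-subunit proteins, 1 is a small-subunit protein, 1 is elongation factor-1 alpha and 1 is cystatin. Of the control clones 0 of 4 were called by limma, also at an unadjusted p under 0.05, with a median of 0.08, beside -0.09 over all clones. The other 18 ribosomal protein clones had a median of 0.92. Relative to the controls 8 members were higher and 1 lower, beside 9.24 and 9.77% of all clones, and all 8 are ribosomal proteins.

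L38 (USD-47) differed most between the fractions, by 2.69 ± 0.25 (SE, adjusted p = 0.00151), and it is described with its second clone below. L30 (USD-182) went from -1.64 and -2.14 in slow-dried total RNA to -0.23 and 0.10 in polysomal RNA, a difference of 1.83 ± 0.25 (adjusted p = 0.00394). L32 (USD-120) went from -1.50 and -1.40 to -0.05 and 0.38, a difference of 1.61 ± 0.21 (adjusted p = 0.00323). L1 (USD-309) went from -1.47 and -1.96 to -0.00 and -0.22, a difference of 1.60 ± 0.22 (adjusted p = 0.00394). In all 4 clones the pairs of arrays do not overlap, and the polysomal level lies near the typical clone or above it.

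The same differences on the control scale were 2.61 for L38, 1.75 for L30, 1.53 for L32 and 1.53 for L1, and all 4 passed the threshold there. S3-like (USD-357, 1.54), L13a (USD-325, 1.49), L35 (USD-264, 1.42) and L37 (1.21) were also called on both scales. Elongation factor-1 alpha (USD-189, 1.04), cystatin (USD-191, 1.01), L34e (0.98) and L18 (0.85) were called on the typical-clone scale only. Dye-swap normalization gave 11 higher and 2 lower members (13 and 19.5% of all clones), and the authors' ratios 1 of each, USD-47 and USD-279 (1.56 and 1.69%). The 12 became 6 without either slow-dried polysomal array and 8 without replicate 2 of slow-dried total RNA.

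In rehydrated plants 11 members were called higher in polysomal than in total RNA and 2 lower, with 14.5 and 15.5% of all clones called. Relative to the controls 1 member was called higher, L38 (USD-47), and 1 lower, against 5.6 and 13.2% of clones. The members' median was 0.28 on the typical-clone scale and 0.14 on the control scale. With dye-swap normalization 1 was higher and 23 were lower, beside 0.651 and 79.2% of all clones, and the authors' ratios gave 0 calls among the members and 0% of all clones in either direction. L1 lay at -1.30 and -1.21 in total RNA and at 0.15 and -0.21 in polysomal RNA (1.22 ± 0.22, adjusted p = 0.0106), and with dye-swap normalization its difference was -0.05. L32 had -0.18 and -0.08 in total RNA and 0.81 and 0.74 in polysomal RNA (0.91 ± 0.21, adjusted p = 0.0215), and was 0.77 higher on the control scale, not past the threshold.

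The other members called higher there were S3-like (1.15), the control S3 (1.08), L13a (0.90), L18 (0.72) and elongation factor-1 alpha (0.72) of protein synthesis, and the vacuolar aspartic proteinase USD-496 (1.10), the proteasome subunit USD-49 (1.07) and the mitochondrial processing peptidase USD-705 (0.74) of breakdown. For USD-49 and USD-705 the hydrated channel was not well above background on replicate 1 of rehydrated total RNA. The 2 lower ones were the protease USD-279 (-1.33) and 1 of the L5 clones, USD-213 (-0.68). Without either rehydrated polysomal array, again including the one with the conflicting title, 0 members were called in either direction, and without replicate 1 of rehydrated total RNA 4 were called higher and 1 lower.

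**Figure D2:**
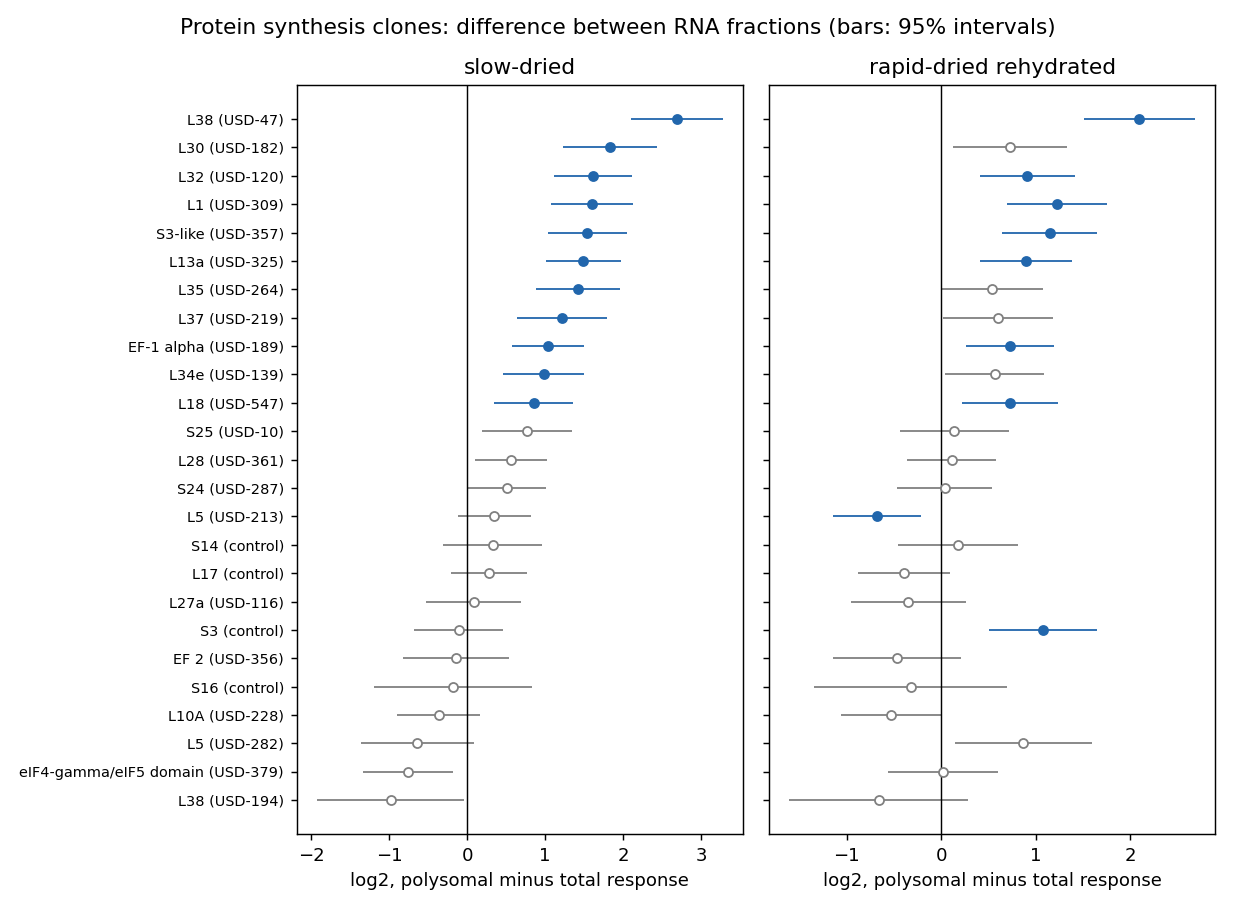
Difference between the polysomal and the total RNA response (log2) of the 25 protein synthesis clones in slow-dried (left) and rehydrated (right) plants, with 95% intervals of the limma fit; filled blue points passed an adjusted p under 0.05 and open grey ones did not. L38 (USD-47) lies highest in both panels at 2.69 and 2.10; on the control scale 8 of the clones in the left panel and 1 in the right panel were called, and with dye-swap normalization several clones of the right panel change sign.

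The array holds 2 clones annotated as L38 (RPL38A), a small protein of the large subunit, and they did not move together. USD-47 had log2 ratios of -1.40 and -1.85 in slow-dried total RNA and -1.52 and -1.20 in rehydrated total RNA, then 0.96 and 1.17 in slow-dried and 0.74 and 0.72 in rehydrated polysomal RNA. Its 4 total RNA values are all low and its 4 polysomal values all high, with no overlap. USD-194 had 0.08 and 1.26, then -0.88 and 0.81 in total RNA, and -0.46 and -0.17, then -0.79 and -0.60 in polysomal RNA. Its total RNA values spread over both sides of 0 and overlap the polysomal ones, which are all below 0.

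USD-47 was called lower than the typical clone in both total RNA comparisons (-1.62 and -1.36) and higher in both polysomal ones (1.07 and 0.73), and on the control scale it was level with the controls in total RNA (-0.14 and -0.18, not called) and called higher in polysomal RNA (2.48 and 1.78). Its polysomal response exceeded its total RNA response 6.45-fold in slow-dried plants (95% interval of the log2 difference 2.10 to 3.28) and 4.27-fold in rehydrated plants (1.505 to 2.69, adjusted p = 0.0054). Under dye-swap normalization the second difference was 0.82 with the call kept, and with the authors' ratios it was 1.91 (adjusted p = 0.0592). Without replicate 1 or 2 of the rehydrated polysomal arrays it was 2.07 and 2.12, and the adjusted p rose to 0.0635 and 0.0839.

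USD-194 was called in no comparison on the typical-clone scale, with a fitted value of 0.67 ± 0.28 in slow-dried total RNA (adjusted p = 0.0738), and on the control scale it was called higher in slow-dried total and slow-dried polysomal RNA (2.16 and 1.09). On 3 of the 4 total RNA arrays at least 1 of its channels was not well above background. In rehydrated total RNA neither channel was on either array, so no fold or call is read there on any scale. Over all 8 arrays the difference within an array, USD-47 minus USD-194, averaged -0.20 with an SD of 1.85, above 0 on 4 arrays (exact two-sided sign-flip test, p = 0.766). That mean joins opposite signs.

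Split by fraction, a division chosen after these values were seen, USD-47 lay below USD-194 on all 4 total RNA arrays, with a mean difference of -1.81 ± 1.03 (SD, n = 4), and above it on all 4 polysomal arrays, by 1.41 ± 0.10 (SD, n = 4). No test is given for this split. The total RNA difference is set against a clone that was at background in at least 1 channel on 3 of those 4 arrays. Whether the 2 clones carry 1 gene or different members of a family is not given in the sources used here.

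**Figure D3:**
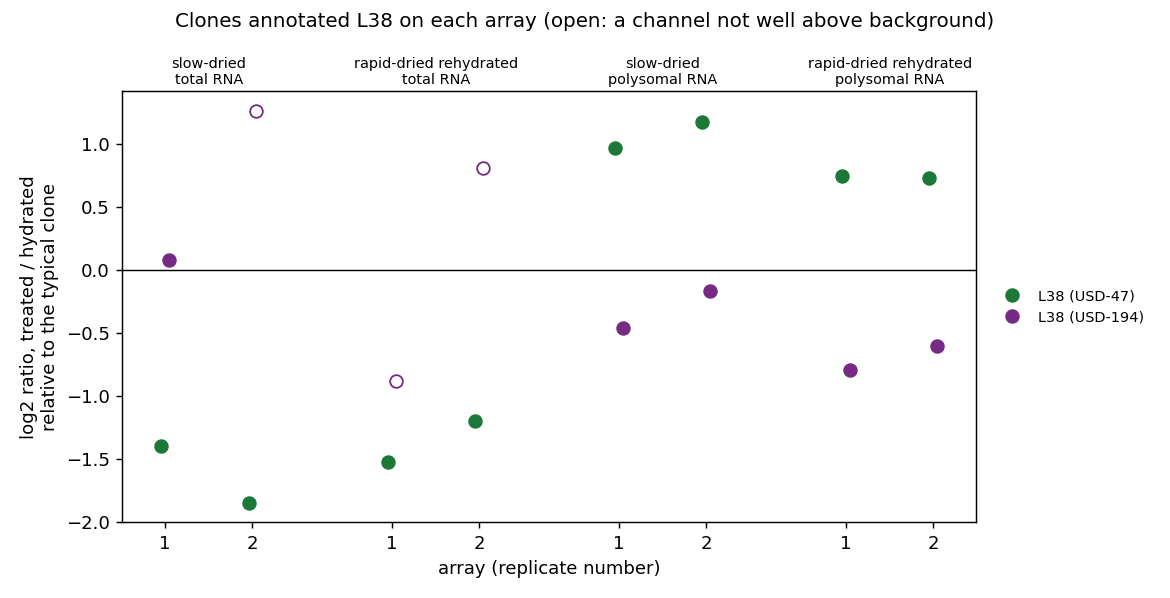
Log2 ratio of treated to hydrated tissue (0 is the typical clone) of the clones annotated L38 on each of the 8 arrays; open points mark an array where a channel was not well above background. USD-47 runs from -1.85 to -1.20 on the total RNA arrays and from 0.72 to 1.17 on the polysomal arrays, whereas USD-194 runs from -0.88 to 1.26 and from -0.79 to -0.17.

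The L5 name, a large-subunit protein that binds the 5S ribosomal RNA, is also carried by a pair of clones. USD-213 had -0.53 and -0.53 in slow-dried total RNA, 0.76 and 0.55 in rehydrated total RNA, -0.17 and -0.20 in polysomal RNA of slow-dried plants, and -0.09 and 0.04 in rehydrated polysomal RNA. USD-282, annotated as senescence-associated, had -0.33 and -0.04, -1.69 and -0.64, -0.83 and -0.82, and -0.30 and -0.29 on the same arrays. The clones differ most in rehydrated total RNA, where USD-213 is above and USD-282 below the typical clone, and there the hydrated channel of USD-282 was too dim on replicate 1 to be well above background.

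USD-213 was lower in slow-dried than in rehydrated total RNA by 1.19, a difference of -1.19 ± 0.19 (adjusted p = 0.0114), and by -0.88 on the control scale, which was not called. Called lower than the typical clone in rehydrated total (-1.16) and slow-dried polysomal RNA (-0.82), USD-282 differed by 0.98 ± 0.30 the other way (adjusted p = 0.0689), and by 1.28 on the control scale, which was called (adjusted p = 0.0358). Over the 8 arrays USD-213 minus USD-282 averaged 0.60 with an SD of 0.91 (exact sign-flip p = 0.0859, adjusted over 3 pairs 0.129). The pair was picked after the data were seen, so no conclusion is drawn from its p-value.

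The large-subunit clones L28 (USD-361) and L35 (USD-264) were called lower than the typical clone in all 4 comparisons, at -1.71, -0.98, -1.15 and -0.87 for L28 and at -2.05, -1.21, -0.63 and -0.67 for L35. Against the controls L28 was called in none (-0.22, 0.21, 0.26 and 0.18) and L35 was called higher in slow-dried polysomal RNA (0.78). L30 and L1, which lay near the typical clone in polysomal RNA, were called higher than the controls in slow-dried polysomal RNA (1.34 and 1.30), and L13a was in both polysomal comparisons (1.19 and 0.73). L27a (USD-116) and L10A (USD-228) were called lower than the typical clone in all but rehydrated total RNA, at -0.95, -0.87 and -0.83 for L27a and -0.51, -0.87 and -0.82 for L10A. Against the controls L27a was called higher in rehydrated total RNA (0.70) and L10A in both total RNA comparisons (0.98 and 0.90).

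All 6 small-subunit clones, 3 of them controls, were called lower than the typical clone in both total RNA comparisons, beside 30.6 and 26.8% of all clones. Against the controls 1 was higher in slow-dried total RNA (S16) and 1 lower in rehydrated total RNA (S3). Both are control clones, whose own values help to set that scale, so these calls show only that the controls differ from each other. S25 (USD-10) had -1.51 and -2.06, -1.25 and -1.17, -0.96 and -1.07, and -1.16 and -0.98 on the slow-dried total, rehydrated total, slow-dried polysomal and rehydrated polysomal arrays. S24 (USD-287) had -1.65 and -1.54, -1.09 and -0.87, -0.97 and -1.21, and -1.05 and -0.84. Both were called lower than the typical clone in all 4 comparisons and in none on the control scale.

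S3-like (USD-357) was not called in polysomal RNA, unlike the other 5. It had -1.28 and -1.96 in slow-dried total RNA and -1.11 and -1.33 in rehydrated total RNA, then 0.10 and -0.27, and 0.04 and -0.19, in polysomal RNA, where it lay near the typical clone and was called higher on the control scale (1.32 and 0.98). Set against the control clone that bears the name S3, the difference USD-357 minus S3 averaged 0.72 with an SD of 0.64 over the 8 arrays, above 0 on 7 of them (exact sign-flip p = 0.0234, adjusted over 3 pairs 0.0703). This pair was chosen after the data were seen, so no conclusion is drawn from its p-value. The difference averaged 0.29 in total RNA and 1.15 in polysomal RNA, over 4 arrays each.

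The median of the large-subunit clones minus that of the small-subunit clones, which needs no scale, was -0.12 and 0.03 on the slow-dried total RNA arrays and 0.05 and 0.10 on the rehydrated ones. In polysomal RNA it was 0.31 and 0.55 in slow-dried and 0.28 and 0.39 in rehydrated plants. The difference averaged 0.20 with an SD of 0.22 over the 8 arrays and was above 0 on 7, so its mean is within 1 SD of 0, and the polysomal values all lie above the total RNA values. The controls S3, S14 and S16 are small-subunit clones, while L17 is the only large-subunit control. Polysomal minus total medians were 0.08 (slow-dried) and -0.07 (rehydrated) for the 4 controls, and 0.92 and 0.58 for the other 18 ribosomal protein clones. Subunit is therefore partly mixed with control status. No test is given for a median over members, since the members were chosen with results of these data known.

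Of the 3 translation factors, elongation factor-1 alpha (USD-189), which delivers aminoacyl-tRNA to the ribosome, had -1.37 and -1.36 in slow-dried total RNA, -1.26 and -1.06 in rehydrated total RNA, -0.27 and -0.38 in polysomal RNA of slow-dried plants, and -0.45 and -0.43 in rehydrated polysomal RNA. Its total and polysomal values do not overlap. Elongation factor 2 (USD-356), which moves the ribosome on by a codon, had 0.24 and -0.11, 0.63 and 0.71, -0.04 and -0.12, and -0.14 and 0.55 on the same arrays. It stayed near or above the typical clone, and was called higher in rehydrated total RNA (0.67 ± 0.20, adjusted p = 0.0267), where its hydrated channel was not well above background on replicate 1.

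USD-379, whose annotation names a domain shared by initiation factors (eIF4-gamma, eIF5 and eIF2-epsilon), had -0.94 and -0.50, -1.43 and -1.05, -1.35 and -1.61, and -1.39 and -1.05. It was the only translation factor called lower than the typical clone in all 4 comparisons. On the control scale it was called in slow-dried total RNA, upward (0.76), and elongation factor 2 was called higher in all 4 comparisons (1.26 to 1.86). Elongation factor-1 alpha was called higher on the control scale in both polysomal comparisons (1.08 and 0.61) and lay at 0.12 and 0.02 in total RNA.

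Of the 4 folding clones, Hsp70 and rof1 were called lower in slow-dried than in rehydrated total RNA, beside 11.3% of all clones. Between fractions 0 of the 4 were called by limma, also at an unadjusted p under 0.05. Over all clones 13.8% were called higher and 15.5% lower in polysomal than in total RNA of slow-dried plants, and 14.5 and 15.5% in rehydrated plants. With 4 clones, and USD-261 dim on every total RNA array, these 0 calls do not set folding clones apart. The heat shock cognate Hsp70 (USD-511), which holds unfolded chains, had -1.20 and -1.82 in slow-dried total RNA and -1.29 and -1.31 in slow-dried polysomal RNA. In rehydrated plants it had -0.13 and 0.08 in total RNA and -0.06 and 0.07 in polysomal RNA. The slow-dried values are all low, the rehydrated ones lie at the typical clone, and the groups do not overlap. Its slow-dried response was 2.81-fold lower than its rehydrated response in total RNA (log2 -1.49 ± 0.26, adjusted p = 0.0139).

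The total RNA difference of Hsp70 (USD-511) was called on the control scale too (-1.19, adjusted p = 0.047) and not with the authors' ratios (-0.94, adjusted p = 0.179). In polysomal RNA the difference was -1.30 ± 0.26 (adjusted p = 0.0475), and it was not called on the control scale (-0.95), by dye-swap normalization (-0.03) or without any 1 of the 4 polysomal arrays. Relative to the controls the clone was level with the controls in slow-dried plants (-0.03 in total and 0.11 in polysomal RNA) and called higher in rehydrated plants (1.16 and 1.06).

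The clone rof1 (USD-630), a peptidylprolyl isomerase that speeds the turning of proline bonds and is known in Arabidopsis as a partner of heat shock proteins, had -1.48 and -2.36 in slow-dried total RNA and 0.02 and -0.62 in rehydrated total RNA. In polysomal RNA it had -2.04 and -2.01 in slow-dried and -0.77 and -0.69 in rehydrated plants. The treatments do not overlap in either fraction. The difference in total RNA was -1.62 ± 0.30 (adjusted p = 0.0156) and was called on the control scale (-1.32, adjusted p = 0.0391), while in polysomal RNA it was -1.30 ± 0.30 (adjusted p = 0.0751).

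Some values of rof1 (USD-630) rest on dim spots. Neither channel was well above background on replicate 2 of slow-dried total RNA, and the hydrated channel was not on replicate 1 of rehydrated total RNA. Without the first array the difference was -1.26 (adjusted p = 0.0657) and without the second -1.43 (adjusted p = 0.0525), so the call is lost in both cases, as it is with the authors' ratios (-2.93, adjusted p = 0.161).

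Heat shock protein 90 (USD-414), which helps signalling proteins and other clients to mature, had -1.34 and -1.01, -0.95 and -0.55, -0.84 and -2.03, and -0.30 and -1.19 on the slow-dried total, rehydrated total, slow-dried polysomal and rehydrated polysomal arrays. Its polysomal arrays differ by up to 1.19, and it was called lower than the typical clone in both slow-dried comparisons and in none on the control scale. On replicate 2 of each slow-dried pair its treated channel was not well above background. In rehydrated total RNA its hydrated channel was not well above background on either array, so no fold is given there. The Clp regulator USD-261, of the machinery that unfolds proteins for the Clp protease, had -0.61 and 0.55, -0.87 and 0.34, 0.32 and -0.11, and 0.24 and -0.01. Neither of its channels was well above background on any total RNA array, so no fold or call is read there on any scale. In polysomal RNA it was not called on the typical-clone scale and was called higher on the control scale (1.51 and 1.17).

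**Figure D4:**
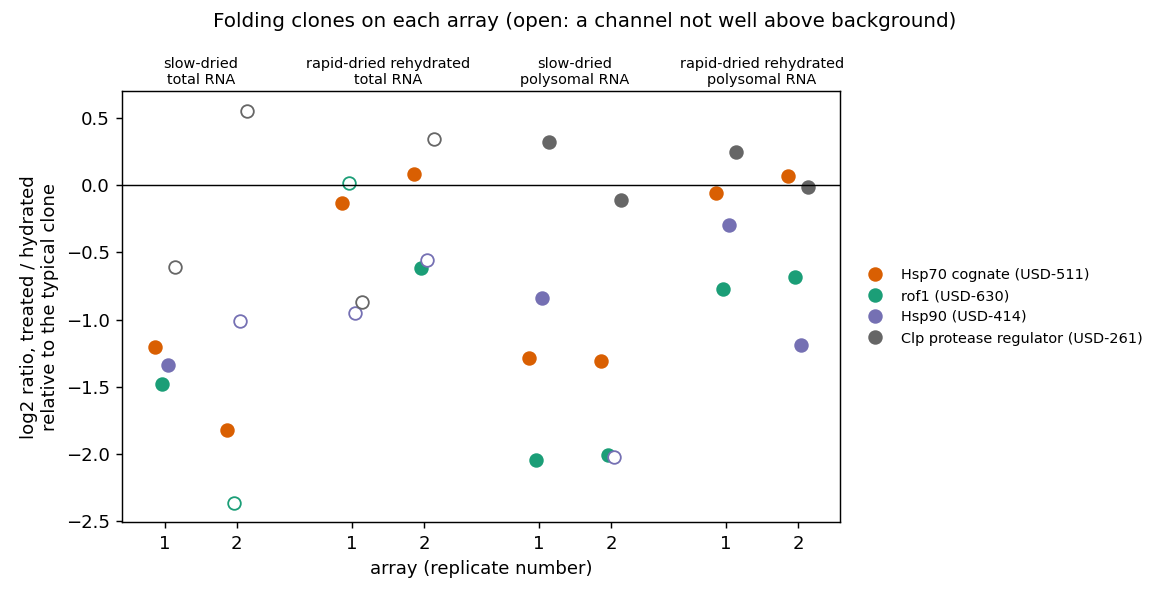
Log2 ratio of treated to hydrated tissue (0 is the typical clone) of the 4 folding clones on each of the 8 arrays; open points mark an array where a channel was not well above background. Hsp70 lies from -1.82 to -1.20 on the slow-dried arrays and from -0.13 to 0.08 on the rehydrated arrays, and rof1 from -2.36 to -1.48 and from -0.77 to 0.02.

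The treatments were compared directly for all members. In total RNA 8 members were lower in slow-dried than in rehydrated plants and 0 higher by limma (2 at an unadjusted p under 0.05), beside 11.3 and 6.38% of all clones, and on the control scale 2 were lower (Hsp70 and rof1) and 1 higher (USD-282), beside 4.3 and 7.29%. Besides Hsp70, rof1 and the L5 clone USD-213, the 8 were L32 (-1.32), the control L17 (-1.07), cystatin (-0.98), L35 (-0.84) and L28 (-0.73). Dye-swap normalization gave 1 higher and 8 lower, beside 5.73 and 20.2% of all clones. With the authors' ratios 0 members were called, and the 8 calls became 3 without replicate 2 of slow-dried total RNA and 4 without replicate 2 of rehydrated total RNA or without either rehydrated polysomal array. They became 5 without either slow-dried polysomal array or without replicate 1 of rehydrated total RNA.

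In polysomal RNA 2 members were lower in slow-dried plants, Hsp70 and serine carboxypeptidase (USD-186), and 0 were higher by limma, also without adjustment, beside 3.65 and 0.26% of all clones. On the control scale 0 were called, as were 0% of all clones, and 3 members were lower at an unadjusted p under 0.05. Serine carboxypeptidase, which trims residues from the carboxyl end of proteins, had -1.84 and -1.16 in slow-dried and -0.23 and -0.32 in rehydrated polysomal RNA, a difference of -1.23 ± 0.24 (adjusted p = 0.0449, -0.87 on the control scale). Its total RNA values were -1.53 and -1.26 in slow-dried and -0.68 and -0.42 in rehydrated plants. On replicate 1 of rehydrated total RNA its hydrated channel was not well above background. The treatments do not overlap in either fraction. With dye-swap normalization 26 members were higher and 0 lower in polysomal RNA, beside 74.3 and 1.04% of all clones, and without any 1 of the 4 polysomal arrays the 2 calls became 0.

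Of the 8 breakdown clones 2 were called higher and 5 lower than the typical clone in slow-dried total RNA, and 2 higher and 4 lower in rehydrated total RNA, beside 32.4 and 30.6%, then 29.4 and 26.8%, of all clones. In polysomal RNA 0 were higher by limma (also without adjustment) and 5 lower in slow-dried plants (21 and 24.5% of all clones), and 0 higher and 3 lower in rehydrated plants (19 and 17.6%). Relative to the controls 4, 5, 4 and 5 were called higher in the total and then the polysomal comparisons, slow-dried first, and 1 was lower, in rehydrated total RNA. Over all clones 77.7, 72.5, 81.6 and 75.5% were called higher there in the same order, and 1.56% lower in rehydrated total RNA. The vacuolar aspartic proteinase (USD-496), which digests proteins in the plant vacuole, had -1.33 and -1.66 in slow-dried total RNA, -2.27 and -1.67 in rehydrated total RNA, -1.38 and -1.60 in polysomal RNA of slow-dried plants, and -0.84 and -0.89 in rehydrated polysomal RNA. The proteasome subunit alpha 6 (USD-49), part of the outer ring of the 20S core, had -1.58 and -1.23, -1.71 and -1.50, -1.12 and -1.25, and -0.61 and -0.46. Both were called lower than the typical clone in all 4 comparisons, and on the control scale only the proteinase was called, lower, in rehydrated total RNA (-0.78). In both clones the rehydrated polysomal arrays are the highest. The hydrated channel of USD-49 was not well above background on replicate 1 of rehydrated total RNA.

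USD-279, annotated as a hypothetical protein with a protease match, was the only member called lower in polysomal than in total RNA in slow-dried plants. It had 0.99 and 0.82 in slow-dried total RNA and 0.40 and 0.50 in rehydrated total RNA, then -1.29 and -1.65 in slow-dried and -0.75 and -1.02 in rehydrated polysomal RNA. All total RNA values are above 0 and all polysomal values below it. The polysomal response was 5.19-fold below the total RNA response in slow-dried plants (-2.38 ± 0.21, adjusted p = 0.0015) and 2.52-fold below it in rehydrated plants (-1.33 ± 0.21, adjusted p = 0.00696), and both were called on the control scale (-2.45 and -1.47). The second call is lost with the authors' ratios (-1.42, adjusted p = 0.0883) and without replicate 1 (-1.39, adjusted p = 0.0794) or replicate 2 (-1.27, adjusted p = 0.1) of rehydrated polysomal RNA.

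USD-369, annotated as a protease, was the other breakdown clone called higher in total RNA, with 0.54 and 0.66 in slow-dried and 0.89 and 0.75 in rehydrated plants. In polysomal RNA it had 0.24 and -0.02, and 0.24 and 0.26. It was called higher on the control scale in all 4 comparisons (1.30 to 2.08), although its hydrated channel was not well above background on 1 array of each total RNA pair.

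Cystatin (USD-191) was below the typical clone in slow-dried total RNA (-0.87 and -1.36) and near it elsewhere, from -0.24 to 0.03, and on the control scale it was called higher in the other 3 comparisons (0.85 to 1.30). Mitochondrial processing peptidase (USD-705), which cuts import signals from proteins entering mitochondria, was called lower in 3 of the 4 comparisons (-0.64, -1.15 and -0.72) and lay at -0.41 in rehydrated polysomal RNA. Relative to the controls it was called higher in all but rehydrated total RNA (0.85, 0.68 and 0.64). Its hydrated channel was not well above background on replicate 1 of rehydrated total RNA. Prolyl endopeptidase (USD-573), which cuts peptides after proline, was called nowhere on the typical-clone scale, was called higher in all 4 comparisons on the control scale, and had the widest gap of any member between the arrays of a pair (2.02). In rehydrated total and slow-dried polysomal RNA no array had both of its channels well above background. The same held on replicate 1 of slow-dried total RNA. Its slow-dried polysomal arrays had opposite signs, 0.81 and -1.21.

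**Figure D5:**
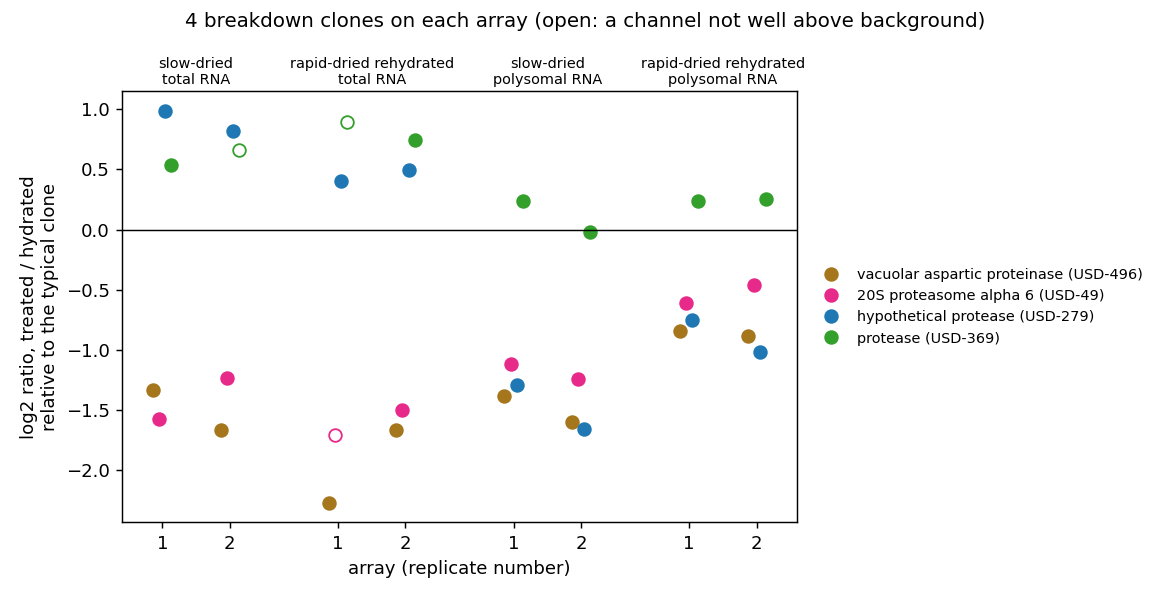
Log2 ratio of treated to hydrated tissue (0 is the typical clone) of 4 breakdown clones on each of the 8 arrays; open points mark an array where a channel was not well above background. USD-279 runs from 0.40 to 0.99 in total RNA and from -1.65 to -0.75 in polysomal RNA, while the aspartic proteinase and the proteasome subunit stay below 0 on all 8 arrays on this scale.

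Set against each other within an array, breakdown clones had a higher median than synthesis clones on all 4 total RNA arrays (by 0.80, 0.71, 0.66 and 0.63) and on the rehydrated polysomal arrays (0.52 and 0.30), and a lower one on the slow-dried polysomal arrays (-0.06 and -0.50). Folding clones stood above synthesis clones on the same 6 arrays, by 0.20 and 0.32 in slow-dried total RNA, 0.75 and 0.83 in rehydrated total RNA, and 0.62 and 0.34 in rehydrated polysomal RNA. In slow-dried polysomal RNA they stood below, at -0.23 and -0.98. In rehydrated total RNA the folding median rests partly on clones with neither channel well above background. These were USD-261 on replicate 1 and USD-414 on replicate 2. On replicate 1 Hsp70 alone of the folding clones had both channels well above background. The same held on replicate 2 of slow-dried total RNA. There the folding median rests on Hsp70 and on USD-414, whose treated channel was not well above background. Over the 8 arrays the mean differences were 0.38 ± 0.45 (SD, n = 8) for breakdown and 0.23 ± 0.59 (SD, n = 8) for folding, each smaller than its spread, and folding minus breakdown was -0.15 ± 0.30 (SD, n = 8).

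Few other clones of these pathways are on the array. A search for words such as tRNA, synthetase, RNA helicase and RING finger found 4 more clones, of which gamma-glutamylcysteine synthetase (USD-23) and glutamine synthetase (USD-382) are metabolic enzymes matched by the word alone. On the typical-clone scale 0 of the 4 were called by limma in either slow-dried comparison. At an unadjusted p under 0.05 there were 1 higher and 1 lower in total RNA and 1 higher in polysomal RNA. Of all clones 32.4% were called higher and 30.6% lower in slow-dried total RNA, and 21 and 24.5% in slow-dried polysomal RNA. In rehydrated total RNA the RING finger clone USD-218 was called lower (-0.45 ± 0.15, adjusted p = 0.0404), and in rehydrated polysomal RNA USD-23 was (-0.53 ± 0.15, adjusted p = 0.0332). The RNA helicase USD-321 was called in none. Over all clones 26.8% were called lower in rehydrated total and 17.6% in rehydrated polysomal RNA. Relative to the controls all 4 of these pathway clones were called higher in the first 3 comparisons and 2 in rehydrated polysomal RNA. Most clones were called higher on that scale: 77.7 and 72.5% in slow-dried and rehydrated total RNA, and 81.6 and 75.5% in slow-dried and rehydrated polysomal RNA.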

How the data were processed

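Each of the 8 arrays has a scanner file per channel. Per the file headers, the authors deposited the intensity of each spot and of its local background, in scanner units and not normalized, with a spot flag of another kind (unit: other) whose meaning is not given in the sources used here. The authors also deposited a table with 1 ratio of treated over hydrated per clone and array; its values place the 4 control clones at a median near 1. No source used here names the scanner or the image software.

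Spot means and background medians were corrected by normexp (offset 50), log2 ratios were taken and loess-normalized within each array (span 0.3, 4 iterations), and the 3 spots of a clone were averaged. One limma 3.58.1 fit (R 4.3.3) covered the 768 clones and 8 arrays, with 4 comparison coefficients and a dye term, 3 residual and 6.41 total degrees of freedom, and Benjamini-Hochberg adjustment over all clones. P-values were two-sided and measure the spread between arrays of pooled RNA after the dye term. They do not measure the spread between single plants. The SE pools all 8 arrays. The fit was tested on simulated data. The treated channel of each array was taken from the dye in the labels. The number of arrays limits the precision.

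The members and lists were chosen with earlier results of these data known. The background column was too: the fit first used the background mean, and the median was adopted after 3 pairs of columns were compared, because its counts matched those of an earlier analysis of the same files. With the mean, 30, 23, 23 and 19 members were called lower and 2, 4, 1 and 2 higher, the same as reported; with the spot median in place of the spot mean, 29, 24, 22 and 17 and 3, 4, 1 and 2. The photosystem I subunit was added to the green-tissue markers after the annotations were read. Values on every array are printed, by rule, for the control clones, the L38 clones and in each role up to 4 clones called in most comparisons; those of other clones were chosen after their values were seen. The design text names S14, S16, L23 and L15 as controls where the labels and files name L17, S14, S16 and S3. Where a channel was not well above background on both arrays of a comparison no fold is given in the report, since no bound exceeded 1.

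Alternatives were the control scale, dye-swap normalization, median centring, no background subtraction, only clones well above background on all arrays, the authors' ratios, and leaving out each array; spots with flag 0 only, the background mean and the spot median were added after seeing the data.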

Additional observations from a re-analysis of the deposited data

Results flagged for a closer look

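Each value here drew attention because limma's test of the difference between 2 responses passed an adjusted p under 0.05 on the typical-clone scale. Members called different between the treatments in total RNA, slow-dried minus rehydrated, had log2 differences of -1.07 for L17, -1.19 for USD-213, -0.73 for USD-361, -0.98 for USD-191, -1.49 for USD-511, -1.62 for USD-630, -0.84 for USD-264 and -1.32 for USD-120. In polysomal RNA the same contrast gave -1.30 for USD-511 and -1.23 for USD-186. On the control scale USD-511 and USD-630 were called in total RNA and 0 of the polysomal ones were (3 members were lower there at an unadjusted p under 0.05 by limma).

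Between fractions, polysomal minus total RNA, the called differences in slow-dried plants were -2.38 for USD-279, 0.85 for USD-547, 1.60 for USD-309, 1.49 for USD-325, 1.54 for USD-357, 1.21 for USD-219, 2.69 for USD-47, 0.98 for USD-139, 1.04 for USD-189, 1.01 for USD-191, 1.42 for USD-264, 1.83 for USD-182 and 1.61 for USD-120. In rehydrated plants they were 1.07 for USD-49, -0.68 for USD-213, -1.33 for USD-279, 0.74 for USD-705, 0.72 for USD-547, 1.22 for USD-309, 0.90 for USD-325, 1.15 for USD-357, 1.08 for S3, 2.10 for USD-47, 0.72 for USD-189, 0.91 for USD-120 and 1.10 for USD-496. Against the control clones 9 of the slow-dried differences were called, all but those of USD-189, USD-191, USD-139 and USD-547, and 2 of the rehydrated ones, USD-47 and USD-279. Fraction cannot be told apart from plant sample and slide. Comparisons have 2 arrays each, so no array was tested as an outlier.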

How the results depend on the processing

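Most directions against hydrated tissue rest on the scale. Beside the typical-clone counts in the report (members higher and lower), the control scale gave 12 and 0 for slow-dried total RNA, 14 and 2 for rehydrated total RNA, 17 and 0 for slow-dried polysomal RNA, 16 and 0 for rehydrated polysomal RNA, 1 and 2 for slow-dried minus rehydrated total RNA, 0 and 0 for slow-dried minus rehydrated polysomal RNA, 8 and 1 for polysomal minus total RNA of slow-dried plants and 1 and 1 for polysomal minus total RNA of rehydrated plants. Dye-swap normalization gave 9 and 5 for slow-dried total RNA, 11 and 0 for rehydrated total RNA, 18 and 4 for slow-dried polysomal RNA, 2 and 17 for rehydrated polysomal RNA, 1 and 8 for slow-dried minus rehydrated total RNA, 26 and 0 for slow-dried minus rehydrated polysomal RNA, 11 and 2 for polysomal minus total RNA of slow-dried plants and 1 and 23 for polysomal minus total RNA of rehydrated plants. The authors' ratios, which place the control clones near a ratio of 1, gave 11 and 0 for slow-dried total RNA, 9 and 0 for rehydrated total RNA, 14 and 0 for slow-dried polysomal RNA, 12 and 0 for rehydrated polysomal RNA, 0 and 0 for slow-dried minus rehydrated total RNA, 0 and 0 for slow-dried minus rehydrated polysomal RNA, 1 and 1 for polysomal minus total RNA of slow-dried plants and 0 and 0 for polysomal minus total RNA of rehydrated plants. Median centring in place of loess gave 2 and 30 for rehydrated total RNA, 3 and 4 for slow-dried minus rehydrated total RNA, 0 and 1 for slow-dried minus rehydrated polysomal RNA, 12 and 2 for polysomal minus total RNA of slow-dried plants and 14 and 1 for polysomal minus total RNA of rehydrated plants. Without background subtraction the counts that moved by over 1.5 times were 2 and 7 for slow-dried minus rehydrated total RNA and 0 and 1 for slow-dried minus rehydrated polysomal RNA. Among the 254 clones well above background on all arrays, 26 of them members, they were 1 and 25 for slow-dried total RNA, 2 and 20 for rehydrated total RNA and 14 and 2 for polysomal minus total RNA of slow-dried plants. With flag 0 spots only, added after seeing the data, they were 0 and 1 for slow-dried minus rehydrated polysomal RNA. With the spot median, also added later, they were 12 and 2 for polysomal minus total RNA of slow-dried plants and 10 and 1 for polysomal minus total RNA of rehydrated plants. With the background mean no count moved by over 1.5 times. Shares over all clones are not given for median centring and the settings listed after it, or for fits that leave out an array. Whether those changes in counts are particular to the members therefore cannot be told here.

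Leaving out each array in turn, a fit in which the lone array left in a comparison is assumed to vary like the others, the counts ran from 1 to 3 higher and 26 to 30 lower for slow-dried total RNA, from 1 to 4 higher and 20 to 24 lower for rehydrated total RNA, from 0 to 1 higher and 12 to 23 lower for slow-dried polysomal RNA, from 0 to 2 higher and 0 to 21 lower for rehydrated polysomal RNA. For the differences they ran from 0 to 1 higher and 3 to 7 lower for slow-dried minus rehydrated total RNA, from 0 to 0 higher and 0 to 2 lower for slow-dried minus rehydrated polysomal RNA, from 6 to 13 higher and 1 to 3 lower for polysomal minus total RNA of slow-dried plants, from 0 to 12 higher and 0 to 2 lower for polysomal minus total RNA of rehydrated plants. The mean difference of the L38 clones ran from -0.45 to 0.21, and its exact p stayed above the threshold under every alternative in which it could be computed. Over the same fits the difference in medians ran from 0.15 to 0.40 for folding minus synthesis, 0.32 to 0.51 for breakdown minus synthesis, -0.20 to -0.087 for folding minus breakdown and 0.15 to 0.25 for large minus small subunit. The L38 mean was 0.154 with dye-swap normalization (exact p = 0.789), 0.154 with median centring (exact p = 0.781) and 0.222 with flag 0 spots only (exact p = 0.906), and it could not be computed from clones well above background on all arrays, since USD-194 is not among them. Folding minus breakdown was 0.171 among those clones. The cause of these changes was not tested.

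On the control scale 38 fitted log2 ratios of the clones named by rule changed sign against hydrated tissue with a call on at least 1 of the scales. Sign changes without such a call are not listed. In slow-dried total RNA they were now 0.081 for USD-49, 0.61 for S16, 0.76 for USD-379, 0.12 for USD-189, 0.31 for USD-414 and 0.092 for USD-186. USD-261 is also counted there, and with neither channel well above background no value is given. In rehydrated total RNA they were now 0.47 for L17, 0.34 for S16, 0.21 for USD-287, 0.023 for USD-189, 1.16 for USD-511, 0.89 for USD-630 and 0.63 for USD-186. USD-261 and USD-194 are counted there too, without a value for the same reason. In slow-dried polysomal RNA they were now 0.23 for USD-49, 0.39 for USD-547, 0.35 for S16, 0.74 for USD-219, 0.32 for USD-287, 0.58 for USD-139, 1.08 for USD-189, 0.11 for USD-511, 1.09 for USD-194, 1.33 for USD-356 and 0.39 for USD-10. In rehydrated polysomal RNA they were now 0.51 for USD-49, 0.17 for USD-279, 0.075 for USD-547, 0.21 for S3, 0.11 for USD-219, 0.11 for USD-287, 0.098 for USD-139, 0.61 for USD-189, 0.32 for USD-630, 0.78 for USD-186 and 0.19 for USD-496.

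With the authors' ratios 47 values against hydrated tissue and 1 difference changed sign, again counting only those called on the main scale or in the alternative. Those of slow-dried total RNA were 0.085 for USD-49, 0.0055 for S3, 1.09 for S16, 0.034 for USD-219, 0.18 for USD-47, 0.033 for USD-287, 0.038 for USD-139, 1.13 for USD-379, 0.36 for USD-189, 0.25 for USD-511, 0.26 for USD-414, 0.19 for USD-186 and 0.23 for USD-496. Those of rehydrated total RNA were 0.15 for USD-49, 0.11 for L17, 0.0073 for USD-547, 0.44 for S16, 0.52 for USD-379, 0.018 for USD-189, 1.20 for USD-511, 1.74 for USD-630, 0.12 for USD-10 and 1.76 for USD-186. Those of slow-dried polysomal RNA were 0.085 for USD-49, 0.015 for USD-547, 0.16 for S16, 0.92 for USD-219, 0.17 for USD-287, 0.40 for USD-139, 1.19 for USD-189, 0.087 for USD-511, 1.38 for USD-356, 0.33 for USD-10, 0.047 for S14 and 0.080 for USD-496. Those of rehydrated polysomal RNA were 0.48 for USD-49, 0.29 for USD-279, 0.048 for USD-547, 0.22 for S3, 0.18 for USD-219, 0.10 for USD-287, 0.081 for USD-139, 0.67 for USD-189, 0.30 for USD-630, 0.089 for USD-10, 0.023 for S14 and 0.29 for USD-496. Those of polysomal minus total RNA of rehydrated plants were -0.040 for USD-705.

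With dye-swap normalization 23 values against hydrated tissue and 34 differences did. For slow-dried total RNA the values became 0.49 for S16 and 0.76 for USD-379. For rehydrated total RNA the values became 0.070 for USD-49, 0.089 for L17, 0.00081 for USD-547, 0.59 for S16, 0.031 for USD-219, 0.013 for USD-47, 0.016 for USD-287, 0.47 for USD-379, 0.10 for USD-189, 1.18 for USD-511, 1.45 for USD-630, 0.098 for USD-10 and 1.09 for USD-186. For slow-dried polysomal RNA the values became 0.096 for S16, 0.78 for USD-219, 0.053 for USD-287, 0.30 for USD-139, 1.03 for USD-189, 0.85 for USD-194, 1.13 for USD-356 and 0.34 for USD-10. For slow-dried minus rehydrated polysomal RNA the values became 0.94 for L17, 1.15 for USD-213, 1.08 for USD-369, 0.81 for USD-705, 0.94 for USD-547, 0.94 for USD-309, 1.32 for USD-357, 0.98 for USD-287, 1.05 for USD-361, 0.88 for USD-379, 1.28 for USD-228, 1.29 for USD-116, 0.85 for USD-356, 0.72 for USD-120 and 0.93 for S14. For polysomal minus total RNA of rehydrated plants the values became -0.52 for USD-49, -1.06 for USD-705, -1.04 for USD-547, -0.049 for USD-309, -0.39 for USD-325, -0.091 for USD-357, -0.66 for S3, -0.85 for USD-219, -0.94 for USD-287, -1.02 for USD-361, -0.76 for USD-139, -1.59 for USD-379, -0.43 for USD-189, -1.21 for USD-511, -1.08 for USD-10, -1.18 for USD-414, -1.30 for USD-186, -1.01 for S14 and -0.38 for USD-496.

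With median centring 2 did. Polysomal minus total RNA of rehydrated plants gave 0.14 for USD-213 and 0.87 for USD-191.

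Of the members not named by rule, counted in the same way, 39 values against hydrated tissue changed sign on the control scale, 43 with the authors' ratios, 26 with dye-swap normalization and 1 with median centring. The sign changes counted above for USD-261 in both total RNA comparisons and for USD-194 in rehydrated total RNA come from spots with neither channel well above background, so they give the shift of the array and no fold. A shift of the whole array moves all clones on it alike, which is how the first of these is built. The arrays' number and, for dim clones, signal over background limit the precision, and the 2 arrays of a comparison leave little room to tell a single array's error from the response. No paired analysis was possible because the labels give slide numbers and no replicate numbers shared between comparisons. The L5 and S3 pairs, the split of the L38 pair by fraction, the background mean, the spot median and the flag 0 setting were chosen after seeing the data, as was the division into clones named by rule, whose values are printed, and the rest, given as counts.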
